A study of Homo sapiens with 6 samples.

Results

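R1 is a culture of SK-N-AS neuroblastoma cells that had become resistant to indisulam, and its open chromatin was compared by ATAC-seq with that of naïve SK-N-AS cells. The comparison takes 2 libraries of each (naïve 1 and 2, R1 1 and 2), chosen by their titles, and so 4 of the 6 libraries of the series. The other 2 are from a second resistant culture, R2, which took no part in choosing regions and is given beside the results. SK-N-AS is an established cell line without MYCN amplification. All cells were grown out of mouse xenografts and were not treated in culture: the naïve cells came from a tumor given vehicle, R1 and R2 from tumors that had relapsed under indisulam and were taken in a further cycle of the drug. The sources do not say whether both libraries of a culture are independent growths, so p-values below measure the spread between these libraries, which may be technical.

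ATAC-seq uses a transposase that cuts and tags accessible DNA, and peaks mark open sites. Gene starts are open in most cells, whereas distal enhancers open where transcription factors bind them. AP-1 is one such family, dimers of FOS and JUN proteins that respond to growth factors and stress. Its site was searched here loosely, as TGA, any base, TCA. Indisulam brings the splicing factor RBM39 to the ligase receptor DCAF15, and RBM39 is then degraded.

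Distal regions with an AP-1 site ranked lower in R1 than in naïve cells. The 6 regions shown first are examples chosen by their ranks: among distal, non-exonic regions called in both comparisons described below, with a site within 50 bp of the summit, they fell furthest against the surrounding 10 Mb. Each is the hg38 plus strand, 5′ to 3′, 50 bp either side of the summit, with AP-1 sites in capitals.
NAV2 intron, chr11:19919349-19919449: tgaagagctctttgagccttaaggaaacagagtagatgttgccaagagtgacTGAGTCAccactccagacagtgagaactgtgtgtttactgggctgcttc
lncRNA intron, nearest start PHLDA1, chr12:75978051-75978151: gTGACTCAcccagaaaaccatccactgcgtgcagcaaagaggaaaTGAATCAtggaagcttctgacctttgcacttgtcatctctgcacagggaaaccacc
intergenic, nearest start TNS3, chr7:46764251-46764351: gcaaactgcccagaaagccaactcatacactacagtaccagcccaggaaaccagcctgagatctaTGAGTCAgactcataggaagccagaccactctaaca
SMIM3 intron, chr5:150790415-150790515: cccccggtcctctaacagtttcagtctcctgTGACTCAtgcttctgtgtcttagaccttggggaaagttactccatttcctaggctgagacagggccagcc
JAZF1 intron, chr7:28037397-28037497: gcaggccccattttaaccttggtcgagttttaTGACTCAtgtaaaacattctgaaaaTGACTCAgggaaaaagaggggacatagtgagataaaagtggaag
lncRNA intron, nearest start JUN, chr1:58755426-58755526: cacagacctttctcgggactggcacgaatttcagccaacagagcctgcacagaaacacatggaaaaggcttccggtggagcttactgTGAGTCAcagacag

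Regions were compared by percentile rank, because the lists differ in depth. Ranks run from 0 for the weakest to 100 for the strongest of the regions shared by all 4 lists. In R2 they run only over those shared regions with a peak in that R2 list, 56.8% and 59.9% of them. R2 ranks are therefore not on the scale of the naïve and R1 ranks. The region 28.6 kb from the start of JUN, which encodes an AP-1 subunit, ranked at 85.7 and 77.1 in naïve cells and at 4.85 and 0.0631 in R1 (adjusted p = 0.0174). The NAV2 region ranked at 90.9 and 83.3 in naïve cells and at 4.85 and 5.09 in R1 (adjusted p = 0.0109). These regions were chosen for such falls, so their ranks are a description. The other 4 regions ranked between 67.0 and 94.0 in naïve cells and between 0.991 and 9.49 in R1. Neither R2 list had a peak at the NAV2 or PHLDA1 region, whereas the TNS3 region ranked at 54.8 and 65.5 in R2. The R2 lists are the shortest, at 67558 and 73484 peaks, and an open site can lack a peak there through low depth.

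The naïve lists hold 154926 and 115694 peaks and the R1 lists 340558 and 292030, over background rates of 2.29 and 1.35 tags in naïve and 7.94 and 5.43 in R1. In R2 the rates were 0.850 and 0.899 tags. Of 370893 merged regions, 50752 had a peak in all 4 lists and were tested. Naïve ranks were the noisier ones: the median difference between libraries was 10.8 points for the naïve pair and 4.63 for the R1 pair. A naïve rank also moves in steps, since a rank of 11.1 in naïve 1 stands for 13 tags and a rank of 15.6 in naïve 2 for 10 tags. Of the strongest 20000 peaks of one naïve library, 71.9% to 79.1% overlapped those of the other, against 89.0% to 91.3% within R1 and 61.8% to 79.7% between the cell types.

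The AP-1 difference was also present in lists of equal length, which use no calls but the same peak values as the ranks. Of the distal peaks (over 1000 bp from any annotated start) among the strongest 20000, 14.1% and 9.36% had an AP-1 site in naïve cells and 4.20% and 3.83% in R1. The mean was thus 11.7% ± 3.32 (SD, n = 2) for naïve and 4.01% ± 0.260 (SD, n = 2) for R1. Among the strongest 50000 the shares were 9.42% and 6.46% against 3.95% and 3.69%. Both naïve libraries lay above both R1 libraries at either length, although they also differed from each other. Most of the other sites searched also lay apart between the cell types, some higher and some lower in R1. Such separation is therefore not particular to AP-1. An exact permutation test of 2 libraries against 2 cannot go below a two-sided p of 0.333, so the shares carry no test. R2 lay between, at 7.77% and 7.63% of the strongest 20000.

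**Figure D1:**
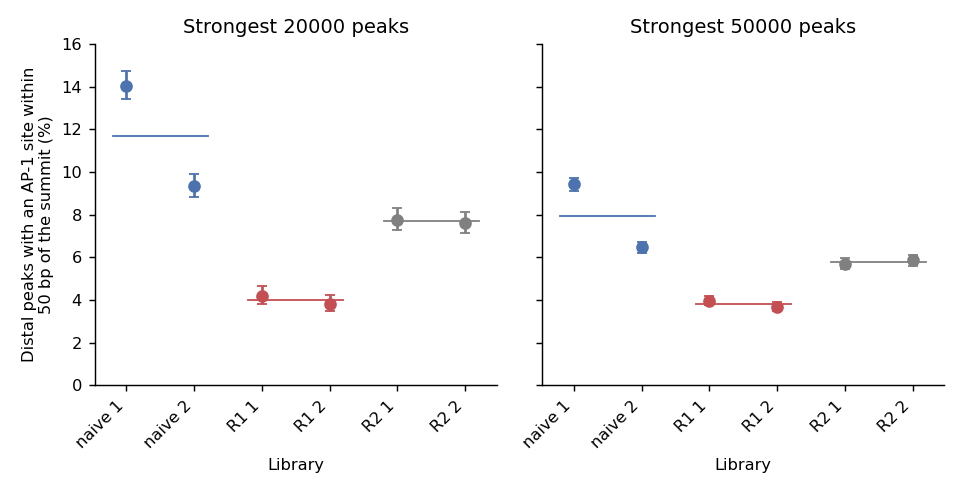
Share of distal peaks (%, y axis) with an AP-1 site within 50 bp of the summit in each library (x axis), among the strongest 20000 (left) and 50000 (right) peaks; points are libraries, bars are 95% Wilson intervals for counting error only, and lines are means of 2 libraries. Both R1 libraries lie below both naïve and both R2 libraries.

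GC content moved with this result, so regions with and without a site were set side by side in 4 ranges of GC, within which GC still varied. Without regard to sites, the median rank difference of distal regions was −12.4 points under 45% GC and −9.20 from 45% to 50%. Distal regions of under 50% GC without an AP-1 site had a median rank difference of −7.81 points between R1 and naïve cells. The 706 such regions with a site had median ranks of 66.0 and 55.8 in naïve cells and 18.9 and 19.4 in R1, a median difference of −30.3 points. At 60% GC or more, the median difference was −6.74 points for 404 regions with a site and 2.23 for 12527 without. In each of the 4 ranges, regions with a site had the lower median. The same held in the strongest 20000 peaks under 50% GC, where the share with a site was 26.8% and 19.6% for the naïve libraries but 4.93% and 4.55% for R1, with R2 at 12.0% and 13.2%.

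A region was called when limma gave an adjusted p under 0.05 and the R1 libraries were both above or both below the naïve ones. As measured, 1651 regions were higher in R1 (3.25%) and 2040 lower (4.02%). Calls gathered on some autosomes: 34.0% of the regions of chromosome 13 were higher, as were 14.7% on chromosome 22 and 12.7% on chromosome 20, whereas 6.77% of chromosome 19 were lower. The median difference was 31.2 points from 110 to 120 Mb of chromosome 13, −20.1 in the first 10 Mb of chromosome 19 and −19.3 from 40 to 50 Mb of chromosome 6. Peak lists cannot tell the copy number of a segment from the openness of its chromatin. Each region was therefore also set against the median of its 10 Mb bin, which left 50224 regions in bins of at least 20.

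Relative to the bin, 495 regions were higher (0.986%) and 969 lower (1.93%), with no higher call on chromosome 13. Both comparisons called 361 regions higher and 908 lower, and no region was called in opposite directions. These counts depend on the variance model and on single libraries: without either R1 library, no region was called relative to the bin, and without naïve 1 there were 5793 higher and 4383 lower. Without the trend of variance on mean rank, limma called none in either comparison, with 11490 regions as measured and 8586 relative to the bin at an unadjusted p under 0.05.

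**Figure D2:**
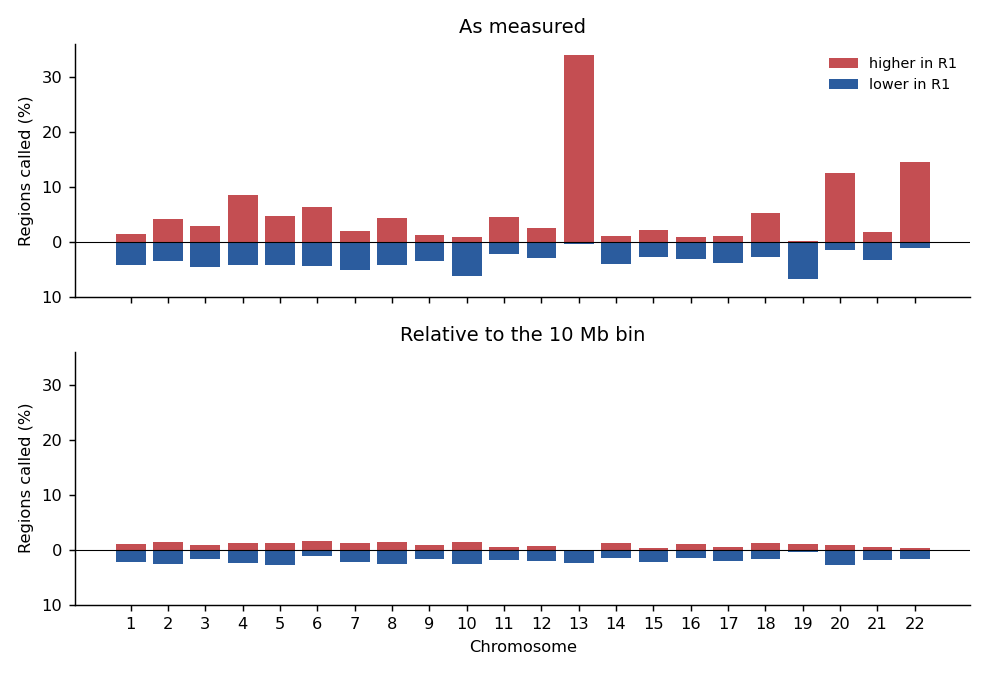
Percent of tested regions called higher (red, upward) and lower (blue, downward) in R1 on each autosome (x axis), as measured (top) and relative to the 10 Mb bin (bottom). The higher calls on chromosomes 13 and 22, 34.0% and 14.7% as measured, came to 0% and 0.382% relative to the bin.

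The directions differed in place and base composition. Of the regions higher relative to the bin, 50.3% lay within 1000 bp of a start, with a median GC content of 64.8%. Of the lower ones 7.12% did, with a median GC content of 52.4%, and among all tested regions the values were 27.0% and 59.4%. The higher regions had median ranks of 45.6 and 47.9 in naïve cells and 83.5 and 84.0 in R1; the lower ones had 87.4 and 83.3, and 29.5 and 29.7. These ranks chose the regions and are a description. In R2, which did not, the median ranks were 54.8 and 60.7 at the higher regions and 60.5 and 65.5 at the lower ones. Over all tested regions they were 48.0 and 48.2, each taken over the regions with an R2 peak. R2 had a peak at 84.8% and 89.1% of the higher and 77.4% and 77.4% of the lower regions. The shares of all tested regions were 56.6% and 59.6%, so both classes lay above all tested regions in R2.

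**Figure D3:**
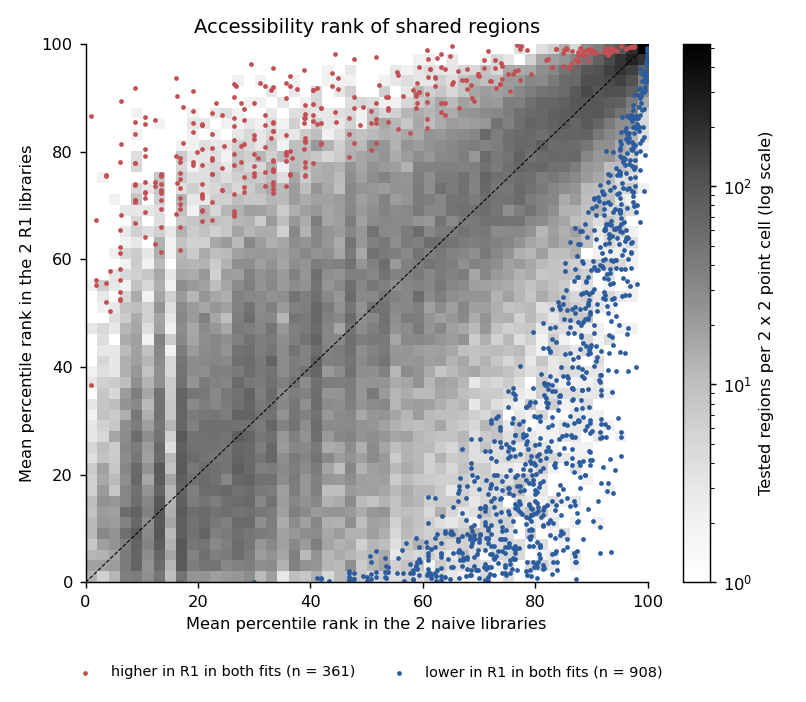
Mean percentile rank of shared regions in the naïve libraries (x axis) and in the R1 libraries (y axis); grey cells count the tested regions on a log scale, and points are the 361 regions higher (red) and 908 lower (blue) in R1 in both comparisons. Higher regions lie along the upper edge over the whole range of naïve ranks, and lower regions lie at the right.

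Among 36674 distal regions, 900 were lower relative to the bin (2.45%) and 246 higher (0.671%). An AP-1 site was found in 39.9% of the lower, 2.03% of the higher and 6.72% of all of them. Without naïve 1 the share among the lower regions was 22.4%, and without naïve 2 it was 30.2%; with a single naïve library the spread comes from the R1 pair alone, which was the tighter one, and that naïve library is assumed to vary like R1. Under 45% GC it was 26.3% against 16.8% of all distal regions, and from 55% GC upward 39.3% against 4.33%. The 69 lower regions at starts showed the same contrast, with a site in 29.0% against 2.20% of all regions at starts.

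Other sites were searched on both strands in the same way, and a match describes the letters, not binding. The GATA site AGATAA was found in 4.44% of the distal lower regions and 1.65% of all distal regions, and GGAATG, part of the TEAD site, in 10.9% and 6.31%. In the strongest 20000 peaks the distal GATA shares overlapped, at 1.84% and 1.26% in naïve cells and 1.53% and 1.47% in R1. Those of GGAATG were 8.47% and 7.79%, and 6.96% and 7.28%. Distal regions with these sites had a median GC content of 52.8% and 54.8%, against 57.8% without. These shares were not split by GC. Higher regions held other letters. The E-box CAGCTG, bound by basic helix-loop-helix factors, was found in 26.0% of the distal higher regions and 11.8% of all, and the SP1 and KLF site GGGGCGGGG in 5.69% and 1.33%. In the strongest 20000 peaks the distal share with CAGCTG was 11.5% in each naïve library, 15.9% and 15.6% in R1, while R2 had 10.9% and 11.1%. The 4 distal, non-exonic regions with CAGCTG (capitals) that rose furthest against their bins in both comparisons are shown next.
lncRNA intron, nearest start ARAP3, chr5:141747243-141747343: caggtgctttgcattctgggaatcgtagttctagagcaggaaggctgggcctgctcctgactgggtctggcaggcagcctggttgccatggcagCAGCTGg
GNAO1 intron, chr16:56264315-56264415: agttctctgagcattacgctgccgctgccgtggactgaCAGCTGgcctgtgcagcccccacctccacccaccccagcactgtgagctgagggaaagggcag
SPTBN4 intron, nearest start SHKBP1, chr19:40542376-40542476: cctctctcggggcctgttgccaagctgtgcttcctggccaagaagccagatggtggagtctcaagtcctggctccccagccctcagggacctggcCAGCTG
CD44 intron, chr11:35223451-35223551: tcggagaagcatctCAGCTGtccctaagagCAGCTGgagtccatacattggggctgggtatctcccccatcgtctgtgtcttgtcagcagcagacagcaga

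CD44 encodes a hyaluronan receptor, and its region, chosen here by its sequence, lies 84.3 kb from the start. It ranked at 11.1 and 47.9 in naïve cells, against 96.8 and 95.9 in R1 (adjusted p = 0.0134), with R2 at 80.7 and 78.5. GNAO1 encodes a G protein alpha subunit of neurons, and its region ranked at 33.0 and 6.56 in naïve cells and 83.9 and 76.1 in R1 (adjusted p = 0.0314), with no R2 peak. These regions were chosen for such rises.

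Some genes collected several lower regions, each region being given to the nearest protein-coding start. The genes named were chosen for their number of calls. Of all tested regions, 1.93% were lower and 0.986% higher relative to the bin. SOX9, a transcription factor of neural crest and mesenchymal cells, had 6 lower of 55 and none higher relative to the bin, 4 of them in introns of LINC00511. The one 345 kb away ranked at 84.6 and 93.9 in naïve cells and 34.8 and 37.0 in R1. The SOX9 start ranked at 96.1 and 98.1 in naïve cells and 82.8 and 88.3 in R1 (adjusted p = 0.0259 as measured and 0.0631 relative to the bin).

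EGFR, the epidermal growth factor receptor, had 5 lower regions of 20, all in its introns. The one at chr7:55133555-55134489 ranked at 96.3 and 96.5 in naïve cells, against 48.9 and 45.4 in R1 (adjusted p = 0.0109), with R2 at 80.7 and 92.7. EPHB2, a receptor of ephrins, had 5 of 31, also in its introns. The one at chr1:22831591-22832688 ranked at 88.9 and 94.5 in naïve cells and 17.3 and 41.5 in R1 (adjusted p = 0.0134).

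MYC had 4 lower regions of 35, from 95.5 to 313 kb past its start in introns of PVT1. The one 118 kb away ranked at 98.1 and 97.1 in naïve cells, against 65.9 and 74.0 in R1, with R2 at 87.7 and 87.6. The MYC start ranked at 90.9 and 94.9 in naïve cells and 94.7 and 94.5 in R1 (adjusted p = 0.654), and these ranks overlapped. The remaining genes with most lower regions were DEFB115 with 14 of 49, TMEM51 with 6 of 57, BDKRB1, a bradykinin receptor, with 4 of 7, NIBAN2 with 4 of 17, ECE1, which processes endothelin, with 4 of 23, and the ribosomal gene RPS24 with 4 of 16. The DEFB115 regions lie up to 2655 kb from its start, and differed by −0.384 to −26.3 points as measured, on a chromosome with a median difference of 15.2 points.

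**Figure D4:**
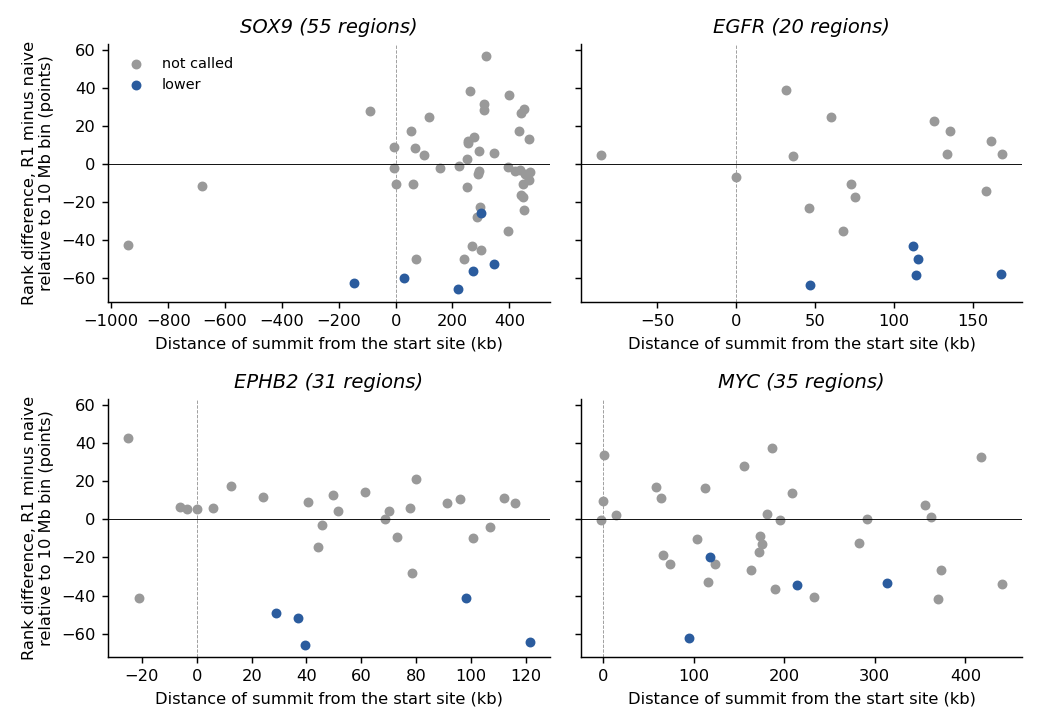
Rank difference between R1 and naïve cells relative to the 10 Mb bin (points, y axis) against distance of the summit from the start (kb, x axis) for the regions given to SOX9, EGFR, EPHB2 and MYC; each point is 1 region, blue if called lower. The 6, 5, 5 and 4 lower regions stand among others of the same gene that were not called.

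Fewer higher regions gathered at single genes, and 0.986% of all tested regions were higher relative to the bin. CHGA, which encodes chromogranin A of secretory granules, had 3 of 20, the neuronal RNA-binding gene CELF4 3 of 34, CCDC182 3 of 49 and the sialyltransferase gene ST3GAL1 3 of 12. The higher regions 227 and 237 kb from the CCDC182 start lie in introns of MSI2, as does its lower region. The CHGA region 5.87 kb from the start ranked at 18.0 and 15.6 in naïve cells and 69.2 and 77.4 in R1 (adjusted p = 0.0208). A CELF4 intron region at chr18:37393885-37396255 ranked at 63.0 and 55.8 in naïve cells, against 95.9 and 95.6 in R1, with R2 at 87.7 and 75.9. EBF3, NKD1, ZMIZ1, GADD45G, CPNE6 and GNAO1 had 2 each. Lower regions were also called at ZMIZ1 (3), GADD45G (1) and CCDC182 (1).

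Of the 10 largest single rises relative to the bin, 5 lay at starts: those of LRFN2, PLAAT1, ZNF442 and DPYSL2, and one in PALM2AKAP2 nearest to C9orf152. LRFN2, a synaptic adhesion gene, ranked at 33.0 and 1.54 in naïve cells and 89.2 and 87.5 in R1, and PLAAT1 at 11.1 and 6.56, and 93.9 and 89.9. The other 5 were distal, nearest to GADD45G, GPR151, LY86, NKD1 and ARAP3. The 10 largest falls were all distal, from −83.4 to −91.8 points, nearest to CGNL1, CCKBR, LHFPL2, NAV2, OR4F16, AVL9, PHLDA1, TNS3, SMIM3 and OR10AD1. The region nearest to OR4F16 lies in MTCO1P12, a nuclear copy of a mitochondrial gene, where mitochondrial reads can align.

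Genes were then read by the region at their own start. Of 13053 protein-coding genes, 990 were higher as measured (7.58%) and 302 lower (2.31%). Relative to the bin, 228 of 12650 were higher (1.8%) and 36 lower (0.285%). Starts also made up more of the strongest 20000 peaks in R1, at 54.9% and 53.8% against 45.4% and 44.9% in naïve cells and 46.2% and 45.7% in R2.

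At the drug's targets, RBM39 ranked at 85.7 and 90.5 in naïve cells and 92.9 and 95.5 in R1 and was not called (adjusted p = 0.172 as measured and 0.759 relative to the bin). DCAF15 ranked at 98.5 and 98.3 in naïve cells, against 89.6 and 94.0 in R1, with R2 at 89.0 and 98.1, and was lower as measured (adjusted p = 0.0279) but not relative to the bin (adjusted p = 0.925), on a part of chromosome 19 with a median difference of −18.6 points. CUL4A, the scaffold of the ligase, was higher as measured only, on chromosome 13. Of 39 splicing factors SF3A1, PTBP2, CLK1, SRPK1 and RBFOX2 were higher as measured, none was lower and none was called relative to the bin. Of all genes, 7.58% were higher and 2.31% lower as measured. The kinase gene CLK1, which acts on SR proteins, ranked at 45.6 and 38.2 in naïve cells and 79.1 and 82.4 in R1.

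MYCN, the MYC paralog amplified in many other neuroblastomas, ranked at 11.1 and 15.6 in naïve cells and 78.6 and 72.9 in R1, a difference of 1.82 ± 0.287 (SE) in normal scores (adjusted p = 0.016 as measured and 0.0286 relative to the bin). R2 had a peak there in 1 list, at rank 29.5 among the shared regions with a peak in that list. Of the 15 MYC network genes AURKA was the other one called, higher as measured only, where 7.58% of all genes were higher. Of 69 distal regions of this list, 5 were lower relative to the bin, against 2.45% of all distal regions, and none higher; 4 of the 5 are the PVT1 regions of MYC.

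Starts of growth factor receptor genes were called in both directions, 4 of 21 higher and 1 lower as measured. Among all genes, 7.58% were higher and 2.31% lower. KIT ranked at 11.1 and 15.6 in naïve cells and 86.1 and 83.7 in R1 (adjusted p = 0.0109 as measured and 0.058 relative to the bin). MET, the hepatocyte growth factor receptor, ranked at 94.7 and 88.6 in naïve cells and 39.5 and 32.2 in R1 (adjusted p = 0.0109), with no R2 peak and too few regions in its bin for the other comparison. In the bins before and after that of MET on chromosome 7, the median differences were −2.16 and −16.0 points. FGFR2 ranked at 55.4 and 55.8 in naïve cells and 83.9 and 84.6 in R1, and was called in both comparisons. NTRK3 and FGFR3 were higher as measured only. Of 162 distal regions of the list 12 were lower relative to the bin (7.41%, against 2.45% of all distal regions) and none higher, and EGFR and EPHB2 held 10 of the 12.

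**Figure D5:**
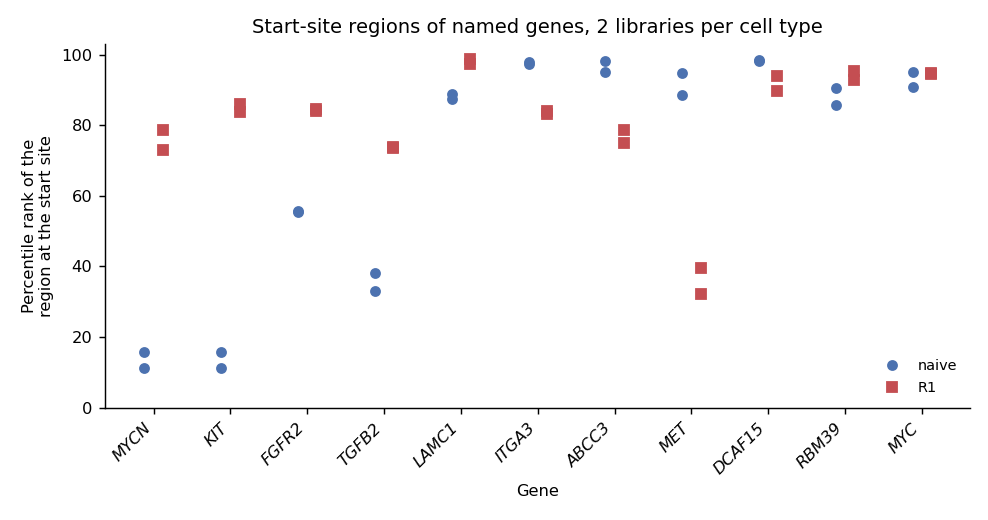
Percentile rank (y axis) of the region at the start of 11 genes (x axis) in both naïve libraries (blue circles) and both R1 libraries (red squares). MYCN and KIT rank at 11.1 and 15.6 in naïve cells and at 72.9 or above in R1, MET is lower in R1, and the ranks of MYC overlap.

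Factors of the neuroblastoma cell states were read at their starts beside the 7.58% higher and 2.31% lower of all genes as measured. Of 16 adrenergic factors, HEY1 and INSM1 were higher as measured, and none was called relative to the bin. Of 18 mesenchymal factors 4 were higher and 1 lower as measured, and 1 was higher relative to the bin. SNAI1, TBX18 and ID1 were higher and SOX9 lower as measured only. Distal regions of the mesenchymal list had 8 lower and 1 higher of 189, and those of the adrenergic list 3 lower and 2 higher of 125, relative to the bin. The shares lower were 4.23% and 2.4%, beside 2.45% of all distal regions. SOX9 alone held 6 of the 8 lower regions of the mesenchymal list. Of 17 AP-1 factor genes, JUNB was lower and MAFF higher as measured, and neither was called relative to the bin.

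Of 24 matrix and adhesion genes 3 were higher and 1 lower as measured, beside 7.58% and 2.31% of all genes. The laminin gene LAMC1 was higher in both comparisons, at 88.9 and 87.5 in naïve cells and 98.6 and 97.2 in R1 (adjusted p = 0.0188 and 0.0296). The integrin gene ITGA3 was lower in both, at 97.2 and 97.9 in naïve cells and 83.9 and 83.1 in R1 (adjusted p = 0.012 and 0.0294). FN1 and ITGAV were higher as measured only. Of 19 WNT and TGF-beta genes LRP5, TCF7L1, TGFB2 and BMP7 were higher as measured, and TGFB2 also relative to the bin.

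Of 7 drug efflux genes ABCC3 and ABCC10 were lower and ABCC4 higher as measured, where 2.31% and 7.58% of all genes were, and none was called relative to the bin. TEAD1 was the 1 of 12 called in the YAP, TAZ and TEAD list, CDKN2B the 1 of 16 of the p53 pathway and BCL2L1 the 1 of 13 of the BCL2 family, all higher as measured. CALR was the 1 of 13 of MHC class I presentation, and was lower. Of 26 ribosomal protein genes RPL37 was higher as measured and RPS15 relative to the bin. No retinoic acid (11) or carbonic anhydrase (3) gene was called. Starts of other cell types' markers were mostly weak: 0 of 9 hepatocyte and 0 to 2 of 9 blood cell markers were among the strongest 20000 peaks of a library, 0 or 1 of 8 endothelial, 0 to 2 of 8 epithelial, 0 to 3 of 7 muscle and 3 or 4 of 8 fibroblast markers.

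Distal regions of list genes are named here after their values were seen. Of all distal regions, 2.45% were lower and 0.671% higher relative to the bin. Beside SOX9, EGFR, EPHB2 and MYC, the list genes with more than 1 lower region relative to the bin were JUN, SMAD3, AMOTL2, TBX2 and CD34, with 2 each. A single one was called at TCF7L2, an effector of WNT signaling. The TCF7L2 region, 124 kb into the gene, ranked at 90.3 and 92.7 in naïve cells and 18.9 and 34.6 in R1. A region 27.5 kb from HAND1, a sympathetic lineage factor, was higher, at 11.1 and 55.8 in naïve cells and 95.7 and 95.3 in R1. AXIN2, GATA3, TEAD1, CBFB and ABCC3 each had 1 higher region, as had CD44 above. The ABCC3 region, 30.3 kb from the start in an intron of CACNA1G, ranked at 89.6 and 92.1 in naïve cells and 97.7 and 98.7 in R1. The ABCC3 start was lower as measured.

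Regions strong in one cell type and weak or unseen in the other were counted without a test. Of 17531 regions in the strongest 20000 of both R1 libraries, 1642 lay outside the strongest 50000 of both naïve libraries and 661 had no naïve peak. The reverse counts were 448 and 27 of 13870 regions. Depth differs in the direction of these counts: the weakest of the strong R1 peaks had 84 and 58 tags and those of naïve 24 and 17, while the lowest peaks had 9 and 7 tags in naïve and 18 and 14 in R1. An AP-1 site was found in 42.9% of the 420 distal regions among the 448, and in 1.71% of the 1173 among the 1642. R2 had a peak at 66.1% and 69.6% of the 448 and at 59.0% and 64.0% of the 1642.

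The 5 best-ranked R1 regions without a naïve peak included the starts of the potassium channel gene KCNJ8, of PPP1R17 and of the cytokine gene TNFSF13B. Another lay 163 kb from the start used for RAPGEF5 but overlapped another annotated start. The last was distal, 94.3 kb from IGFBP3. The KCNJ8 region, chr12:21774339-21775135, stood at places 2380 and 3596 of the R1 lists, strongest first, and at 9925 and 4878 of the R2 lists. The 5 best naïve regions without an R1 peak were nearest to COA6, GPR158, FHAD1, DST and ENSG00000267140. The COA6 region, chr1:234139941-234140279, stood at places 1596 and 7369 of the naïve lists and had an AP-1 site. ALK, a receptor kinase gene mutated in some neuroblastomas, was noticed among the 1642 after the values were seen. Its start, chr2:29919895-29921943, stood at places 1843 and 2875 of the R1 lists, 153003 of the 154926 of naïve 1 and 10436 and 18418 of the R2 lists, with no peak in naïve 2. On chromosome 13, which held 121 of the 1642, KCTD12 had 6 regions and GPC5 had 4, all without a naïve peak. The TNFSF13B region also lies on this chromosome. It held 326 of the 50752 tested regions, of which 34.0% were higher as measured and none relative to the bin. The counts of strong regions were not set against the bin.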

How the data were processed

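Each library gave 1 peak list. The authors aligned reads with BWA 0.7.12-r1039, marked duplicates with Picard 1.65, filtered with SAMtools 1.3.1 and called peaks with MACS2 2.2.7.1 in every library apart; mitochondrial reads had been left out. Their methods name hg19, but coordinates reach the ends of hg38 chromosomes, so hg38 and GENCODE gene models were used. Column 7 of the deposited lists is a fold, a ratio of tags to background. Columns 8 and 9, deposited by the authors, are −log10 p-values and −log10 q-values. Tags and background rates were recovered from the fold. Peaks sharing at least 1 base were merged, and each library's best peak stood for a region.

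Percentile ranks of −log10 p among shared regions were turned into normal scores and tested with limma 3.58.1 in R 4.3.3 (variance trend, Benjamini-Hochberg adjustment, threshold 0.05), as measured and after subtracting 10 Mb bin medians; adjusted p-values are for the comparison as measured unless stated. GC content was taken over 250 bp either side of the summit. Scripts were tested on simulated data. Regions, gene lists, motifs and tests were chosen with earlier results of these data known. Named are RBM39, DCAF15, MYC and MYCN; list genes called at their start; per direction, the 10 regions with the largest difference relative to the bin and the 10 genes with most calls; and the 5 best-ranked regions per cell type without a peak in the other. Others are said to be chosen later or by sequence. Not every list gene is reported here.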

Additional observations from a re-analysis of the deposited data

How the results depend on the processing

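Counts are given as higher and lower, as measured and then relative to the bin. Ranking by fold gave identical counts, since each list has 1 background rate. Summit-matched regions gave 999 higher as measured and 282 relative to the bin. Quantile-normalised pileup gave 840 and 1535 relative to the bin. Ranks in the whole list gave 265 higher as measured, and 15 and 366 relative to the bin. Removing the GC trend gave 200 and 484 relative to the bin. Limma without the trend gave 0 and 0 in both. Whole chromosomes as bins gave 839 higher. With the replicate number as a block (replicate block), the counts were 4115 and 3889, and 2221 and 2530; replicate deviations of naïve and R1 had a correlation of 0.0153 over 50752 regions, so the numbers were not taken as pairs. Leaving out 1 library gave 367 to 10114 higher and 1056 to 9008 lower as measured, and 0 to 5793 and 0 to 4383 relative to the bin. A lone library is assumed to vary like the other group. Relative to the bin both counts were 0 without either R1 library, where 2956 and 3030 regions had an unadjusted p under 0.05.

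The share of distal lower regions with an AP-1 site was 59.0% within 100 bp. In alternatives chosen after seeing the data it was 33.8% as measured, 43.3% by ranks in the whole list, 45.6% with the GC trend removed, 35.2% with the replicate block, and 22.4% to 30.2% without a naïve library. Over all distal regions it was 6.72% within 50 bp.

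Of regions strong in R1, 206 and 11187 were outside the strongest 50000 of naïve cells when strong meant the strongest 10000 and 50000, and 73 and 4548 had no naïve peak. For naïve the counts were 89 and 2441, and 5 and 196. Leaving out 1 library gave 2215 to 2678 and 885 to 1323 for R1, and 527 to 1519 and 32 to 183 for naïve. The share of peaks at starts was higher in R1 by 12.98 points in the strongest 10000 and 2.16 in the strongest 50000. The balance of calls as measured, more lower than higher, turned with the replicate block and without either naïve library. Relative to the bin, the median difference at starts changed sign for 7 lists: splicing factors (3.04 to −0.0631 points), mesenchymal factors (2.81 to −2.62), YAP, TAZ and TEAD (1.76 to −3.39), drug efflux (−4.13 to 5.11), p53 pathway (3.78 to −0.484), BCL2 family (3.50 to −1.23) and fibroblast markers (0.293 to −1.10). The cause of these differences was not tested. With 2 libraries a group, and naïve libraries of fewer tags, weak naïve peaks limit the precision of all ranks.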
